A study of Mus musculus with 30 samples.

Results

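The cytosolic ribosomal protein genes were followed in AtT-20 cells, a mouse pituitary line of corticotropes, the cells that secrete adrenocorticotropic hormone. Members were spots whose deposited name begins with ribosomal protein followed by L, S or large, without the mitochondrial ribosomal proteins and the ribosomal protein S6 kinases. The rule found 78 of the 24192 spots of the array, which belong to 58 genes, 33 of the large and 25 of the small subunit. Each gene was represented by its brightest spot, and further spots of the same gene are described near the end. Of the 58 genes, 51 were measured on all 30 arrays, 30 of the large and 21 of the small subunit, as were 66 of the 78 member spots and 14375 spots in all. Rpl13, Rpl31, Rpl35, Rps2, Rps20, Rps3a1 and Rps7 were lost because at least 1 array had a signal in the lowest 10% of a channel. Rpl35 and Rps3a1 were bright spots that fell below this limit on 1 array each, while Rps20 stayed above it on only 1 array.

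Cells received 100 nM corticotropin-releasing hormone (CRH) for 1, 3, 6, 12 or 24 h, and each time point had its own untreated cells as control. All cells, treated and untreated, had been deprived of serum before the treatment. Each time point had 6 two-colour cDNA arrays, 3 with the CRH-treated RNA in the dye Cy3 and 3 with it in Cy5, and the values below are log2 ratios of the signal in CRH-treated RNA to that in untreated RNA, so that 0 stands for equal signal. The 6 arrays of a time point carried amplified RNA from a single pair of extracts, so the spread between them is technical and each time point is 1 unit of the experiment. A change of RNA per cell and a change in the kind of cells cannot be told apart in such bulk samples, and AtT-20 is a tumour line that stands for corticotropes only in part. The spot of Pomc, the hormone precursor that defines the line, was brighter than 94.6% of the spots measured, and that of Gh, the growth hormone of another pituitary lineage, was brighter than 1.29%, a rank that also depends on the cDNA of each spot. That of Tbx19, a factor of the corticotrope lineage, was brighter than only 10.2%. The spot of Cd74, listed as a leukocyte gene, was brighter than 89.5% of them.

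Ribosomes are built from ribosomal RNAs and a large set of proteins that are needed in equal numbers, the large subunit forming peptide bonds and the small subunit reading the messenger RNA. The mRNAs of these proteins are among the most abundant of a cell, and most of them begin with a run of pyrimidines, the 5′ terminal oligopyrimidine or TOP motif, through which their translation is switched together by the TOR kinase pathway. Nutrients and growth factors are known regulators of this translational switch, which an array of total RNA does not measure.

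The windows of 30 bases around annotated transcription starts are shown for 16 of the genes named below, 9 with and 7 without a pyrimidine run, since the TOP motif is the sequence feature for which this family is known and which the naming rule did not use. Each window runs from 15 bases before the start to the 15th base of the transcript, on the strand of the gene, from RefSeq on GRCm38.p6. Capitals mark the longest run of C or T where it has 8 or more bases. They are Rpl41 at chr10:128549154-128549183 (minus strand), Rpl13a at chr7:45128731-45128760 (minus), Rpl18 at chr7:45718056-45718085 (plus), Rps24 at chr14:24490663-24490692 (plus, the first of its listed starts), Rps18 at chr17:33955651-33955680 (minus), Rplp2 at chr7:141447636-141447665 (plus), Rps6 at chr4:86857353-86857382 (minus), Rps27l at chr9:66946071-66946100 (plus, the first of its starts), Rps26 at chr10:128626492-128626521 (minus), Rpl35a at chr16:33056467-33056496 (plus, the second of its starts), Rpl10a at chr17:28328456-28328485 (plus, the first of its starts), Rpl22 at chr4:152324421-152324450 (plus, the first of its starts), Rpl36a at chrX:134585639-134585668 (plus), Rpl37a at chr1:72711245-72711274 (plus), Rps15 at chr10:80292416-80292445 (plus) and Rps25 at chr9:44407699-44407728 (plus). Where only one of several starts had a run, that start is shown.
Rpl41: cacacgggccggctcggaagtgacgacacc
Rpl13a: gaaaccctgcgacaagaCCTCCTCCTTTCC
Rpl18: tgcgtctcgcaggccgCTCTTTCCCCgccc
Rps24: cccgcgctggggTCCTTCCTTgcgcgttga
Rps18: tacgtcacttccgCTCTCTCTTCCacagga
Rplp2: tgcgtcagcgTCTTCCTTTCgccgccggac
Rps6: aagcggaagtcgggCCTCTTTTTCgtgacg
Rps27l: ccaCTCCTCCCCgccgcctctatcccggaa
Rps26: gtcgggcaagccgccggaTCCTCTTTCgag
Rpl35a: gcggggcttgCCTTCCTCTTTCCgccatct
Rpl10a: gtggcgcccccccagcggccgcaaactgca
Rpl22: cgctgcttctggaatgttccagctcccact
Rpl36a: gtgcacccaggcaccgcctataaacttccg
Rpl37a: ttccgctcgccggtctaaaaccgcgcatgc
Rps15: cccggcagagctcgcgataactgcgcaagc
Rps25: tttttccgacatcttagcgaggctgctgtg

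RefSeq windows were matched for 41 of the 58 genes by symbol. A run of 8 or more C or T bases was present in 17 of these 41 genes (41.5%), against 3760 of all 27025 genes with a window (13.9%), counting a gene once if any of its starts had one. The same run on the other strand, 8 or more A or G bases, was found in 2 of the 41 genes (4.88%), against 15.3% of all genes. The run covered the annotated start itself in 10 of the 41 (24.4%), against 4.44% of all genes. These are matches of letters in short windows at annotated starts and not mapped starts of AtT-20 transcripts.

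The median ratio of the family lay below 0 at 1 h and above 0 at 3 h. Over the 51 genes it was -0.18 after 1 h (0.886-fold of untreated) and 0.22 after 3 h (1.17-fold), and then 0.02 (6 h), 0.11 (12 h) and 0.16 (24 h). The median over all 14375 spots stayed between -0.02 and 0.00 at the 5 time points. Mean ratios were below 0 for 43 of the 51 genes at 1 h and above 0 for 44 genes at 3 h, and later for 29 (6 h), 38 (12 h) and 42 (24 h), while 50.6% of all spots were above 0 at 1 h and 45.3% at 3 h. No set test was made, and these counts describe the list beside the array as a whole.

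The same order was seen on single arrays. At 1 h the median over the member genes ran from -0.22 on the lowest array over -0.15 to -0.11 on the highest, so that all 6 arrays lay below 0. At 3 h it ran from 0.16 over 0.20 to 0.35, with all 6 arrays above 0 and above every array of 1 h. At 6 h the lowest, middle and highest values were -0.11, -0.01 and 0.22, and the 3 arrays above 0 all carried CRH-treated RNA in Cy3 while the 3 below 0 carried it in Cy5. At 12 h the array medians ran from 0.08 over 0.14 to 0.22, and at 24 h from 0.03 over 0.13 to 0.26, again all above 0. The median of gene means at 6 h was 0.16 with CRH-treated RNA in Cy3 alone and -0.13 with it in Cy5 alone.

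**Figure D1:**
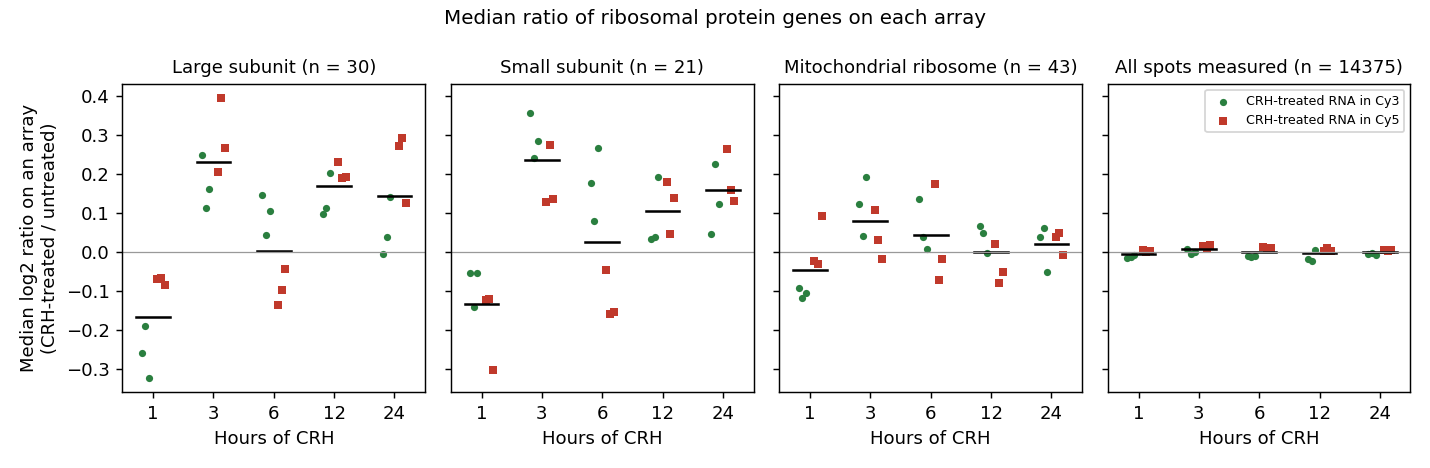
Median log2 ratio (CRH-treated over untreated, vertical axis) on single arrays, by the hours of CRH treatment, for large and small subunit genes, mitochondrial ribosomal proteins and all spots measured. Circles mark arrays in which Cy3 labelled the treated RNA, squares those in which Cy5 did, and bars are means of 6 arrays. Both subunits lie below 0 at 1 h and above 0 at 3 h, while the medians of all spots stay near 0.

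Large and small subunit genes had similar medians. At 1 h the median gene was at -0.20 for the large subunit and -0.16 for the small one, and at 3 h the values were 0.23 and 0.21. At 12 h they were 0.15 and 0.09 and at 24 h 0.14 and 0.16, differences smaller than or close to the SD between the arrays' medians, which was 0.05 to 0.12 for the large and 0.07 to 0.08 for the small subunit at these 2 times.

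Change over the 5 time points was tested across the array by a linear model per spot of time with dye orientation, with p under 0.01 as the threshold. Spots in which time and dye interacted at p under 0.01 were first set aside, and this applied to 19 of the 51 genes, against 14.8% of all spots. Dye dependence was common among bright spots in general, at 708 of the 1438 spots in the brightest 10%, to which 34 of the 51 member genes belong. Of the 32 genes left, 14 changed over time, or 43.8%, against 8.5% of all spots tested and 33.3% of those tested in the brightest 10%. A Benjamini-Hochberg adjusted p of 0.05, over the 12244 spots not set aside, was passed by 11 of the 14. That is 34.4% of the 32 genes, against 3.99% of all spots tested and 20.5% of those in the brightest 10%. Among the 66 member spots, 44 were left and 16 changed. These p-values rest on repeated hybridisations of one pair of extracts per time point, so they measure technical spread and not that between cultures.

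**Figure D2:**
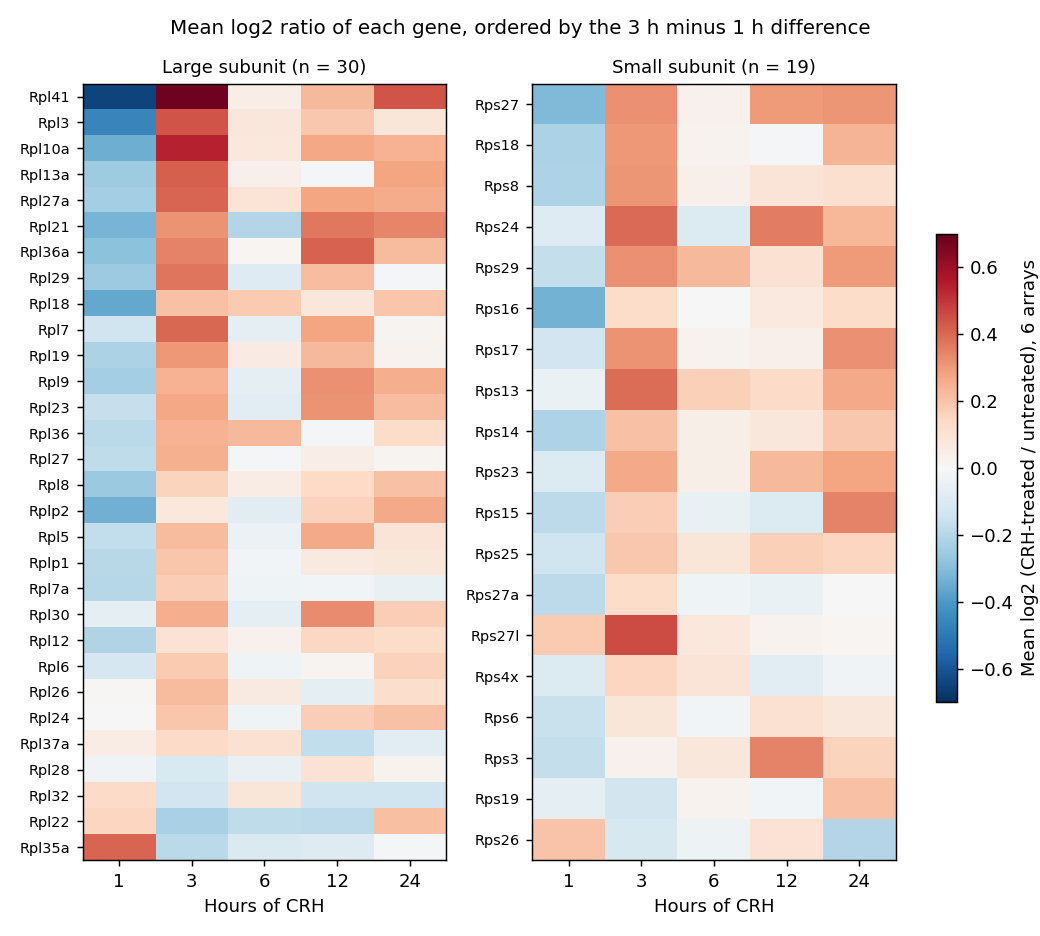
Mean log2 ratio over 6 arrays (colour, CRH-treated over untreated) of 49 genes (rows) at 5 times (columns), large subunit on the left and small subunit on the right, ordered by the difference between 3 h and 1 h. Most rows are blue at 1 h and red at 3 h, and the lowest rows of both panels, among them Rpl35a, Rpl22 and Rps26, run the other way.

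Rpl41, the smallest protein of the large subunit, changed most. Its ratios at 1 h were between -0.77 and -0.52 with a median of -0.65, and at 3 h between 0.44 and 0.95 with a median of 0.67. The ranges were far apart, all arrays of 1 h being below 0 and all of 3 h above 0 in both dye orientations. At 6 h the values ran from -0.45 over 0.09 to 0.48, at 12 h from 0.00 over 0.25 to 0.46 and at 24 h from 0.14 over 0.35 to 0.77, so that only the 6 h arrays lay on both sides of 0. The means were -0.65 ± 0.10 at 1 h (0.639-fold) and 0.68 ± 0.25 at 3 h (1.6-fold), followed by 0.04 ± 0.31 (6 h), 0.22 ± 0.15 (12 h) and 0.44 ± 0.27 (24 h), with the SD over 6 arrays. The time test gave p = 3.91e-11 (linear model, n = 30 arrays, adjusted p = 2.4e-07). Before normalization its signal at 1 h had a median of 5949 intensity units in CRH-treated RNA and 9763 in untreated RNA, and at 3 h a median of 10491 in CRH-treated RNA and 4965 in untreated RNA. The medians were 3818 and 3806 at 6 h, 14605 and 9015 at 12 h, and 14909 and 12593 at 24 h. Such raw values also carry the brightness of each channel, and the normalized ratio at 12 h was 1.17-fold.

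Rpl41 was also the only one of the 51 genes to reach 1.5-fold with one sign on all 6 arrays, lower at 1 h and higher at 3 h. Over all spots this size was passed by 0.0974% in the lower and 0.104% in the higher direction at 1 h, and by 0.16% in the higher and 0.0209% in the lower direction at 3 h. No member passed it later, where it was passed by 0.0348% higher and 0% lower at 6 h, 0.118% higher and 0.0209% lower at 12 h, and 0.0974% higher and 0.0487% lower at 24 h. With one sign on all 6 arrays and no demand on size, 9 members were lower at 1 h (3.4% of all spots) and 20 were higher at 3 h (4.66%). The counts of higher members were 1 at 6 h (1.27%), 12 at 12 h (2.37%) and 11 at 24 h (2.57%), and no member was consistently higher at 1 h (2.94%) or lower at 3 h (2.21%), 6 h (1.39%), 12 h (2.09%) and 24 h (1.99%).

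Further large subunit genes with low p-values moved in the same order with smaller ratios. Rpl10a, of the stalk that releases the used tRNA, had ratios from -0.70 over -0.42 to 0.13 at 1 h and from 0.40 over 0.48 to 0.83 at 3 h, which did not overlap (linear model, n = 30 arrays, p = 0.000103, adjusted p = 0.00799). A second, dimmer spot of Rpl10a did not share this course, with means of -0.24 ± 0.34 at 1 h and -0.11 ± 0.43 at 3 h (n = 30 arrays, p = 0.345). Rpl13a, which in human monocytic cells also joins a complex that blocks the translation of inflammatory mRNAs, ran from -0.82 over -0.26 to 0.23 at 1 h and from -0.01 over 0.52 to 0.82 at 3 h. Its ranges overlapped because the dye orientations were shifted against each other, with means of 0.08 (Cy3) and -0.58 (Cy5) at 1 h and of 0.70 (Cy3) and 0.14 (Cy5) at 3 h, a similar step in either orientation (n = 30 arrays, p = 1.42e-05). Rpl18 ran from -0.89 over -0.34 to 0.08 at 1 h and from -0.03 over 0.26 to 0.35 at 3 h, and kept a mean of 0.18 ± 0.24 at 6 h (n = 30 arrays, p = 5.73e-05).

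Rpl29 averaged -0.25 ± 0.35 at 1 h and 0.37 ± 0.23 at 3 h, with p = 0.000455 in the linear model (n = 30 arrays). Rpl36 was below 0 on all arrays of 1 h (-0.44, -0.14 and -0.07 as lowest, median and highest) and above 0 on all of 3 h (0.07, 0.24 and 0.39), and stayed at 0.22 ± 0.27 at 6 h (n = 30 arrays, p = 0.00147). Rpl3, which lines the peptidyl transferase centre, had the second lowest mean at 1 h, -0.46 ± 0.74, but the 3 arrays with the treated RNA in Cy3 averaged -1.12 and those with it in Cy5 0.20, and it was set aside for this interaction. Its means at 3 h were above 0 in both orientations, 0.22 in Cy3 and 0.66 in Cy5.

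Rpl21 and Rpl36a were set aside for dye interaction too, and their early values did not depend on the dye in direction. Rpl21 ran from -0.55 over -0.30 to -0.03 at 1 h and from 0.05 over 0.31 to 0.51 at 3 h, and averaged 0.37 ± 0.18 at 12 h and 0.34 ± 0.09 at 24 h. Rpl36a ran from -0.40 over -0.34 to -0.09 at 1 h and from 0.05 over 0.39 to 0.54 at 3 h, with 0.41 ± 0.24 at 12 h. In both genes the dyes parted at 6 h, where CRH-treated RNA in Cy3 gave 0.34 for Rpl21 and 0.56 for Rpl36a, and in Cy5 -0.75 for Rpl21 and -0.52 for Rpl36a.

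The acidic stalk proteins, which recruit elongation factors to the ribosome, gave a call for time in Rplp2 alone. Rplp2 ran from -0.73 over -0.27 to 0.02 at 1 h, from -0.12 over 0.07 to 0.35 at 3 h and from 0.03 over 0.23 to 0.58 at 24 h, so that its mean was highest at 24 h, 0.26 ± 0.18 (n = 30 arrays, p = 0.00219, adjusted p = 0.0516). Rplp1 averaged -0.19 ± 0.43 at 1 h, with -0.50 in Cy3 and 0.11 in Cy5, and 0.20 ± 0.34 at 3 h and did not pass the time test (n = 30 arrays, p = 0.227). Rplp0, whose spot is named acidic ribosomal phosphoprotein and so falls outside the naming rule, averaged -0.35 at 1 h and 0.25 at 3 h and was set aside for dye interaction.

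Among small subunit genes Rps24, Rps18, Rps15, Rps29, Rps25 and Rps27l passed the time test. Rps24, one of the genes mutated in Diamond-Blackfan anaemia in humans, had ratios from -0.37 over -0.08 to 0.14 at 1 h, from 0.23 over 0.39 to 0.67 at 3 h and from 0.13 over 0.34 to 0.56 at 12 h. All its arrays of 3, 12 and 24 h were above 0 and only 1 array of 6 h was, with dye orientations close to each other at each time (linear model, n = 30 arrays, p = 9.93e-06, adjusted p = 0.00165). Rps18 averaged -0.22 ± 0.37 at 1 h and 0.30 ± 0.27 at 3 h (n = 30 arrays, p = 0.000519). Rps29 averaged -0.17 ± 0.41 at 1 h, 0.32 ± 0.33 at 3 h and 0.22 ± 0.27 at 6 h (n = 30 arrays, p = 0.00129). Rps15 had its highest mean at 24 h, 0.34 ± 0.23, against 0.17 ± 0.37 at 3 h and -0.18 ± 0.31 at 1 h (n = 30 arrays, p = 0.000589).

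Rps6, the substrate of the S6 kinases, had a spot that reached the scanner limit on 8 arrays, and its ratios were small, from -0.31 over -0.16 to 0.02 at 1 h and from -0.08 over 0.01 to 0.34 at 3 h, with p = 0.0535 for time (n = 30 arrays).

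Rps27l, a paralogue of Rps27 that is induced by p53 in human cells, had its own course. It ran from -0.01 over 0.16 to 0.43 at 1 h and from 0.24 over 0.52 to 0.59 at 3 h, so that it was among the 3 highest members at both times. Means were 0.18 ± 0.15 at 1 h and 0.46 ± 0.15 at 3 h, and then 0.08 ± 0.11 (6 h), 0.03 ± 0.15 (12 h) and 0.01 ± 0.18 (24 h), with a low p for time (linear model, n = 30 arrays, p = 8.73e-06, adjusted p = 0.00162). Rps27 itself averaged -0.31 ± 0.48 at 1 h and 0.32 ± 0.31 at 3 h with a dye interaction. The cDNAs of paralogues can share hybridisation, so the values of the pair are not fully separate measurements.

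**Figure D3:**
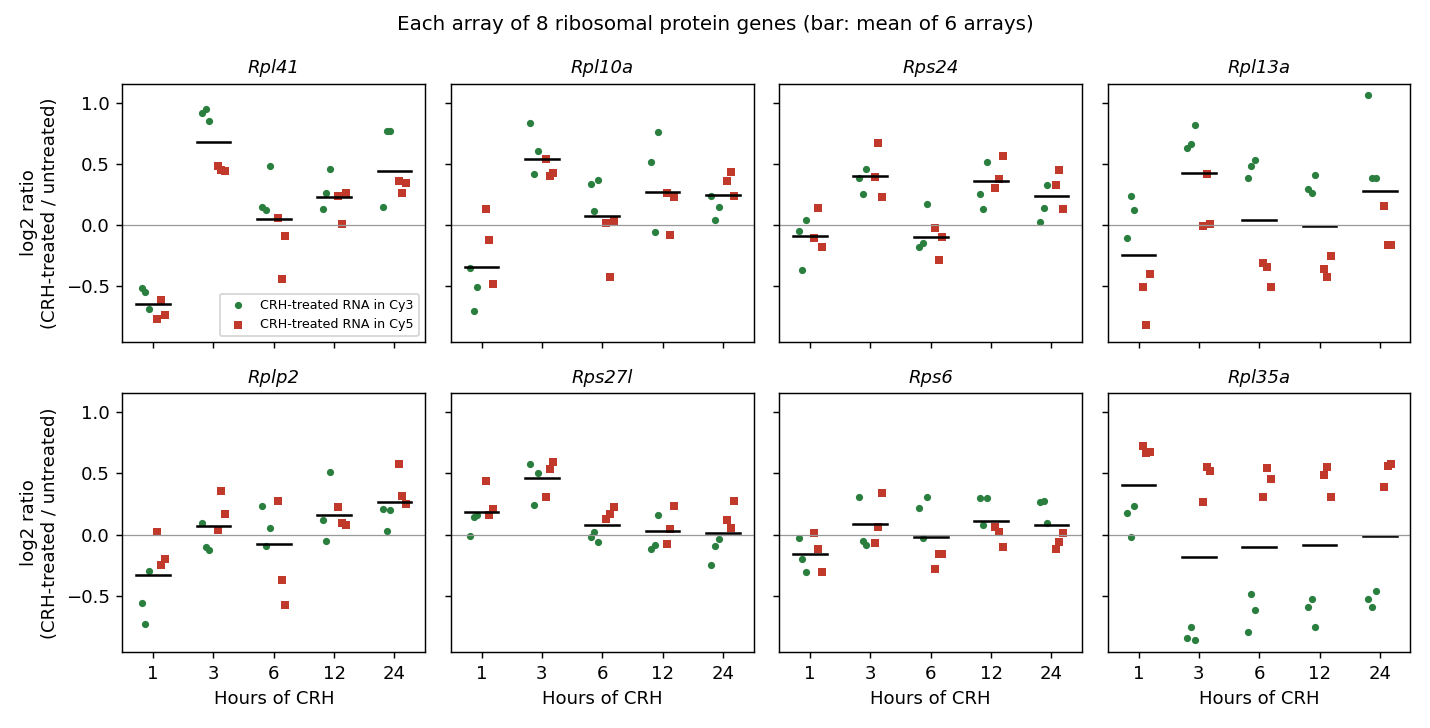
Log2 ratio (CRH-treated over untreated, vertical axis) on every array by hours of treatment for 8 genes, drawn as circles where Cy3 labelled the treated RNA, as squares where Cy5 did, and as bars for means of 6 arrays. Rpl41 and Rpl10a have separate ranges at 1 h and 3 h, Rps27l is above 0 on all but 1 of the arrays of these times, and Rpl35a is split by dye at every time.

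A few members ran against the rest. The mean at 3 h was above that at 1 h in 44 of the 51 genes, against 47.2% of all spots, and below it in 7, among them Rpl22, Rpl28, Rpl32, Rpl35a, Rps19 and Rps26. Rps26, Rpl28, Rpl32 and Rpl22 had dim spots, with mean log2 intensities of 9.53, 10.92, 11.01 and 11.09 against a median of 13.14 over the members. Rpl35a and Rps19 had bright spots but were set aside for dye interaction. Rpl35a had the highest mean at 1 h, 0.41 ± 0.32, with 0.13 in Cy3 and 0.69 in Cy5, and at 3 h its mean of -0.19 was made of -0.82 in Cy3 and 0.45 in Cy5. The split between orientations recurred at 6, 12 and 24 h, and the gene was set aside. Rpl22 averaged 0.15 ± 0.26 at 1 h, -0.23 ± 0.30 at 3 h and -0.18 ± 0.25 at 12 h (n = 30 arrays, p = 0.0159). Rpl32 averaged 0.14 ± 0.48 at 1 h and -0.13 ± 0.37 at 3 h, and Rps26 0.20 ± 0.65 and -0.11 ± 0.35, each within 1 SD of 0 and without a call for time. The means of Rpl37a lay between -0.17 and 0.13 at all times and passed no test.

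Counted over all members, all 6 arrays of 3 h lay above all 6 of 1 h in 16 of the 51 genes, against 1.69% of all spots and 6.61% of the brightest 10%, which hold 15 of the 16, and in none did all lie below (0.41% of all spots). The 16 included Rpl41, Rpl10a, Rpl21, Rpl36, Rpl36a and Rps24. The mean was lowest at 1 h and highest at 3 h of the 5 time points in 24 genes (47.1%), against 8.17% of all spots. In the brightest 10% of all spots this order was found in 196 of 1438 (13.6%), and in 16 of the 34 member genes within it. The difference between 3 h and 1 h had a median of 0.41 over the 51 genes and ranged from -0.60 for Rpl35a to 1.33 for Rpl41, while its median was -0.04 over the brightest 10% and -0.02 over all spots.

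The orientation of the dyes and the day on which images were quantified move with these values. Ratios averaged within each orientation were above 0 in both for 36 of the 51 genes at 3 h (19.1% of all spots) and below 0 in both for 20 at 1 h (20.2% of all spots). At 6 h, 5 genes were above 0 in both (14.5% of all spots) and 5 below 0 in both (14.1%), or 9.8% of the members each. All 1 h arrays were quantified on day 1, all 3 h and 6 h arrays on day 2, those of 12 h on days 3 and 4, and those of 24 h on day 4, so 1 h and 3 h cannot be told apart from their days. Within day 2, 3 h was set against 6 h in a linear model with dye. There 11 of the 51 genes were higher at 3 h at p under 0.01, against 2.34% of all spots and 8.0% of the brightest 10%, and none lower (1.44% of all spots). This count depended on the normalization, with 4 genes under 1 loess curve per array, 6 in the deposited ratios and 17 under median centring without loess. The shares of all spots under these 3 settings were not counted. The lowest p-values among the named genes were those of Rpl41, Rps27l and Rps24 (n = 12 arrays, p = 6.17e-05, p = 0.000429 and p = 0.000641), and Rpl10a, Rpl13a, Rpl29 and Rpl21 were also among the 11. The mean at 3 h was above that at 6 h in 43 of the 51 genes, against 46.8% of all spots and 49% of the brightest 10%. With CRH-treated RNA in Cy3 the median of gene means was 0.15 at 3 h and 0.16 at 6 h. With it in Cy5 the values were 0.23 and -0.13, so the family median fell from 3 h to 6 h in Cy5 alone. With the day as a block, 5 genes had a call for time, against 2.79% of all spots tested. They were Rpl41, Rps27l, Rps24, Rpl13a and Rpl29. That model compares time points only within a day, 3 h with 6 h and 12 h with 24 h. The 1 h arrays fill day 1 alone, so it cannot speak for the step from 1 h to 3 h.

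Over the whole course, with each time point as 1 unit, no member passed the test of a shift or that of a trend. In limma on the 5 averages, 0 of the 51 genes had a mean over time that differed from 0 at an adjusted p under 0.05 (0.0557% of all spots did), with 4 genes at an unadjusted p under 0.05 (5.44% of all spots) and the lowest adjusted p at 0.871. The trend with the log2 of hours gave 0 members and 0% of all spots, with 10 members at an unadjusted p under 0.05 (7.43% of all spots). Rpl41 had a slope of 0.17 per doubling of time (adjusted p = 0.596, limma), and without the 3 h time point, at which its mean was highest, 0.24 ± 0.04 (SE, adjusted p = 0.0159, limma), a test then passed by 0.153% of all spots. This was 1 of 5 such fits, each without 1 time point. The lowest mean of Rpl41, -0.65, was at 1 h, the only time quantified on day 1.

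Where a gene had more than 1 spot, the spots did not always follow each other. Of the 13 genes with 2 or 3 measured spots, the ratios had one sign at 1 h on all spots of 7 genes and at 3 h on all spots of 8. The brightest spot was higher at 3 h than at 1 h in all 13 genes, as were 10 of their 15 dimmer spots. The spots of Rpl27a and of Rpl30 agreed. The dimmest spot of Rpl19 ran against the brightest, with 0.28 at 1 h and -0.21 at 3 h against -0.22 and 0.31, and so did those of Rpl36 (0.29 and -0.03) and Rps29 (0.12 and -0.07). The dimmer spot of Rpl10a had -0.24 at 1 h and -0.11 at 3 h against -0.34 and 0.54 on the brightest. Means near 0 at both times were found on the dimmer spots of Rpl21 (0.03 and 0.02), Rps27 (-0.00 and -0.02), Rps6 (0.01 and 0.06) and Rpl12 (-0.04 and 0.09), and that of Rpl3 had 0.02 and 0.20. The dimmer spot of Rps3 had -0.52 and 0.46 where the brightest had -0.17 and 0.03. Spots of one gene can differ in the cDNA they hold and in cross-hybridisation, which was not tested.

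**Figure D4:**
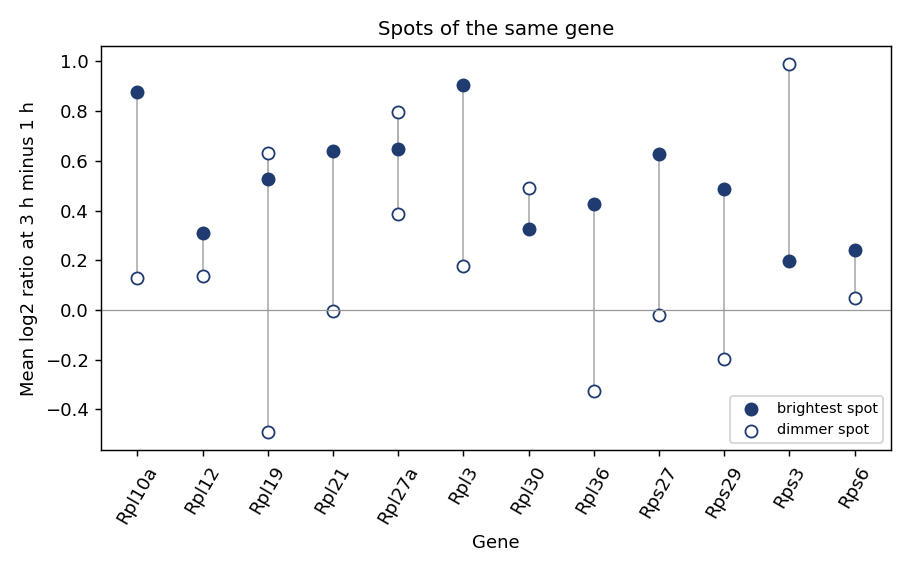
Difference of the mean log2 ratio between 3 h and 1 h (vertical axis, CRH-treated over untreated) for 12 of the genes with more than 1 measured spot. Filled points are the brightest spots and open points the dimmer ones, and all 12 filled points and 9 of 14 open points lie above 0.

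The pyrimidine runs shown above were not limited to the genes that moved. Of the genes with the lowest mean at 1 h and the highest at 3 h, 14 had a window and 7 of them a run of 8 or more C or T bases, against 7 of the 21 other measured members with a window. Rpl41, which moved most, had no such run in its annotated window, and Rpl35a and Rps26, which ran the other way, had one. The run covered the annotated start in Rpl35a but not in Rps26. Among the windows shown, those of Rpl13a, Rpl18 and Rps27l also had a run that did not cover the start. No test was made on these small counts.

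Gene lists close to the ribosome were measured beside the members. For the time test, the share passing was 8.5% of all spots tested and 33.3% of those tested in the brightest 10%. Of 5 ribosome parts outside the naming rule, 4 were below 0 at 1 h and 4 above 0 at 3 h, with list medians of -0.26 and 0.13, and 1 of the 2 left after dye interaction passed the time test. They included Rpl10, a late joining protein of the large subunit (-0.22 at 1 h and 0.25 at 3 h, set aside), Rpsa, the laminin receptor (-0.26 and 0.13), and Gnb2l1, the scaffold RACK1 (-0.36 and 0.01, set aside). The 12 other TOP mRNAs had list medians of -0.13 at 1 h and 0.09 at 3 h, 11 of them being below 0 at 1 h and 7 above 0 at 3 h, and 3 of 7 passed the time test. Eef1d, a subunit of the elongation factor 1 complex, averaged -0.11 at 1 h and 0.38 at 3 h, Npm1, a nucleolar chaperone, had its highest mean at 12 h, 0.40, and Pabpc1, the poly(A) binding protein, had -0.46 at 24 h and was set aside for dye interaction.

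The 43 mitochondrial ribosomal proteins measured of 54 on the array had medians of -0.06 at 1 h and 0.07 at 3 h. The time test was passed by 2 of 38 (5.26%), against 8.5% of all spots tested. The mean was lowest at 1 h and highest at 3 h in 8 of 43 (18.6%), against 8.17% of all spots. The 11 ribosome assembly genes measured of 16 had medians of -0.02 and 0.15, with 3 of 9 called, and the largest ratio was that of Tcof1, a factor of ribosomal RNA transcription, with -0.51 at 24 h, set aside for dye interaction. Of 7 S6 kinase and TOR pathway genes none changed over time, with medians of 0.03 at 1 h and -0.03 at 3 h, and Rps6ka4 had the largest ratio, 0.38 at 3 h. Pomc itself averaged -0.16 at 1 h and 0.39 at 3 h and was set aside for dye interaction. No test was made between these lists and the members.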

How the data were processed

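The deposited scanner files hold the Cy3 and Cy5 intensity of each spot by fixed circle quantification in QuantArray, and a deposited table holds the authors' normalized log2 ratios. The intensities were the starting point. The lowest 10% of each channel were removed on every array, log2 ratios were fitted by loess within each of 48 print-tip blocks (span 0.75), and the 14375 spots left on all 30 arrays were analysed. Ratios were turned to CRH-treated over untreated in both dye orientations. They correlated with the authors' log2 ratios at 0.977 to 0.994 across 11341 shared spots, which settled the direction of that table. On 1 array of 3 h the scanner file lists the channels in the opposite order, and dyes were taken from the image names in the file headers and checked against those ratios. Local background was not subtracted. Its median per array was at most 2.5 units in Cy5. In Cy3 it was 0.34 to 14.9 units at 1 h and 16.9 to 28.3 at 3 h. The number of arrays limits only the technical precision, since each time point had 1 pair of extracts, and array data have no counting depth. Median spot intensity per array was 458 to 2038.

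Tests were linear models per spot over 30 arrays and limma 3.58.1 (R 4.3.3) on the 5 averages, and they were tested on simulated data. P-values were adjusted over all spots in limma, and over the spots without dye interaction in the test of time. Symbols came from RefSeq, 75 spots by symbol and 3 by synonym. Named genes were Rpl41, Rps6, Rps27l and the stalk proteins, the 3 highest and 3 lowest members at each time, members past the tests of CRH effect or trend, the 8 with the lowest p for time, and up to 4 with the largest ratios of each other list. The values of 2 measured genes are not reported here singly, and these genes are left out of the plots by gene. The members and lists were chosen with earlier results of these data known. Alternatives covered the filter, background, normalization, choice of spots, dye, blocks, time coding and left-out arrays.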

Additional observations from a re-analysis of the deposited data

Results flagged for a closer look

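Change over time passed p under 0.01 in the linear model (n = 30 arrays), so that ratios differed between time points, for 12 of the named genes: Rpl41 (p = 3.91e-11), Rps27l (p = 8.73e-06), Rps24 (p = 9.93e-06), Rpl13a (p = 1.42e-05), Rpl18 (p = 5.73e-05), Rpl10a (p = 0.000103), Rpl29 (p = 0.000455), Rps18 (p = 0.000519), Rps15 (p = 0.000589), Rps29 (p = 0.00129), Rpl36 (p = 0.00147) and Rplp2 (p = 0.00219). Named genes were chosen in part by a low p for time, so this count is not an independent result. Over all members tested, 14 of 32 passed, against 8.5% of all spots tested and 33.3% of those tested in the brightest 10%. The p-values measure technical spread, and 1 h and 3 h cannot be told apart from their days.

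Among 125 groups of 6 arrays, 2 held an array far from the others by Dixon's 95% criterion, where chance gives about 1 in 20. Rpl21 at 12 h had 0.0109 on array 6 (CRH-treated RNA in Cy5) against 0.39 to 0.50 on the others, and a mean of 0.44 without it. The median of the small subunit genes at 1 h was -0.30 on array 6 (Cy5) against -0.14 to -0.05.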

How the results depend on the processing

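The medians of the 51 genes kept their sign at 1, 3, 12 and 24 h under every alternative run. Leaving out 1 array at a time gave -0.19 to -0.15 at 1 h, 0.19 to 0.26 at 3 h, -0.03 to 0.05 at 6 h, 0.10 to 0.14 at 12 h and 0.13 to 0.19 at 24 h, and left the counts of genes past 1.5-fold as they were. With CRH-treated RNA in Cy3 alone the median was 0.16 at 6 h, 0.11 at 12 h and 0.09 at 24 h, and with it in Cy5 alone -0.13, 0.18 and 0.22. Median centring without loess gave a median of 0.33 at 3 h, 26 genes changed over time instead of 14, 11 with dye interaction instead of 19, 3 genes past 1.5-fold at 3 h instead of 1, and 17 higher at 3 h than at 6 h instead of 11, and the cause was not tested. Scaling between arrays gave 2 genes past 1.5-fold at 3 h. Genes higher at 3 h than at 6 h numbered 4 with 1 loess curve per array and 6 in the deposited ratios, which hold 41 of the genes and in which 9 genes had all 3 h arrays above all 1 h arrays. The shares of all spots called were not counted under these alternatives. A changed count of members therefore cannot be set against the array as a whole.

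Changed genes numbered 3 with hours as a single number, which fits only a steady course (3.38% of all spots). They numbered 5 with the day of quantification as a block (2.79%), which compares times only within a day. With no spots set aside they numbered 26, and the share of all spots was not counted there. The replicate numbers did not pair the arrays, since deviations of same-numbered arrays correlated between -0.0242 and 0.0482. With the replicate block in place of dye 13 genes changed (7.6% of all spots). Without the 3 h time point 1 gene, Rpl41, passed the trend test (0.153% of all spots). Members on 7 spots at the scanner limit and Rps27l could be left out without moving any count of calls over 1.5 times. Among the genes called over time, the mean over all spots of a gene ended the calls of Rpl36 (p = 0.292, n = 30 arrays) and Rps29 (p = 0.59), and 1 loess curve per array ended those of Rplp2 (p = 0.0176) and Rps18 (p = 0.0723). The call of Rps18 was also lost with median centring (p = 0.0221), and that of Rplp2 in the deposited ratios (p = 0.0109, n = 30 arrays).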
